A study of Mus musculus with 127 samples.

Results

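The genes described here are the ferritin chains Ftl1 and Fth1 and 8 genes of the Nrf2 antioxidant response, namely Hmox1, Nqo1, Gclc, Gclm, Slc7a11, Txnrd1, Srxn1 and Nfe2l2. All 10 of 10 had a row among the 23366 gene symbols of the bulk RNA-seq table. They were chosen by name, and the choice was made because Ftl1 was higher in culture without ligand, so the courses without ligand are given as values and carry no test. Levels are CPM, the counts scaled to a library total of 1000000, which compare 1 gene between libraries and not different genes with each other.

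Long-term hematopoietic stem cells (LT), short-term stem cells (ST) and multipotent progenitors (MPP) from bone marrow of young and old mice were cultured in HSPC medium and sampled over time. With ligand, the medium held LPS at 100 ng/ml, a Toll-like receptor 4 ligand, and Pam3csk4 at 1 ug/ml, a Toll-like receptor 2 ligand. Cells of old mouse 2 and young mice 1, 2 and 3 were sampled with ligand at 0, 0.5, 1, 2, 4, 8 and 12 h. Cells of old mouse 4 and young mouse 4 were sampled without ligand at 0, 2, 4 and 8 h. A course with ligand and one without therefore came from different mice, and ligand and mouse cannot be told apart. Culture in this medium is shared by all samples after 0 h. Strain, sex and age in months are not given in the sources used here. The 3 cell types of 1 mouse share an animal, and the unit of replication is the mouse.

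Ferritin is a shell of light and heavy chains that stores iron: Fth1, the heavy chain, oxidises iron so that it can enter, and Ftl1, the light chain, helps to form the mineral core. When iron is scarce, iron regulatory proteins hold back translation of both mRNAs by binding a hairpin near the 5′ end, the iron-responsive element. The transcription factor Nrf2, encoded by Nfe2l2, is kept low by Keap1 until oxidants or electrophiles modify Keap1; it then binds antioxidant response elements with a small Maf protein and raises transcription of both ferritin chains and of genes for glutathione, thioredoxin and heme metabolism. In stem cells of the bone marrow, low levels of reactive oxygen are a known feature of quiescence.

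Both ferritin mRNAs carry the loop of this hairpin, and it is printed because it is the feature that the light and heavy chain share. The motif searched was a C, any 5 bases and then CAGTGN, in the first 150 bases of the GENCODE M21 transcripts (GRCm38), on the transcript strand; 6.51% of 58797 protein-coding transcripts hold it. Capitals mark the motif, which starts at base 84 of Ftl1-201 (chromosome 7) and at base 93 of Fth1-201 (chromosome 19).
Ftl1: gtgtcttgCTTCAACAGTGTttgaacggaa
Fth1: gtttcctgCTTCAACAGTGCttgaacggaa
The motif also occurs in Gclm-203 and Gclm-204 on chromosome 3, within a sequence that otherwise differs from the ferritin ones.
Gclm: caccatgtCCCATGCAGTGGagaagataaa
The antioxidant response element core, TGACNNNGC, was searched on both strands of RefSeq promoter windows (GRCm38.p6, 250 bases before to 50 after the start). It occurred in 4 of 11 windows of the 8 genes that have a window, against 12.4% of all 32851 windows, and the 4 genes were Nfe2l2, Srxn1, Gclm and Txnrd1. Their sites are shown as the only members whose window holds the core; capitals mark the core or its reverse complement, with 10 bases on each side.
Nfe2l2 (chr2:75704885-75704913, − strand): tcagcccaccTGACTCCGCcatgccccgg
Srxn1 (chr2:152105542-152105570, + strand): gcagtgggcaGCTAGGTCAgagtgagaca
Gclm (chr3:122245413-122245441, + strand): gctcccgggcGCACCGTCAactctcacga
Txnrd1 (chr10:82859104-82859132, + strand): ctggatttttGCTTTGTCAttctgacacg
These builds are later than the mm9 build of the counts, and no coordinate was moved between them. The Nfe2l2 core lies 240 bases upstream of the start, that of Gclm 134 upstream, that of Txnrd1 92 upstream and that of Srxn1 29 downstream. The windows of Ftl1, Fth1, Nqo1 and Slc7a11 did not hold these letters, and Hmox1 and Gclc are named only. A match is a description of sequence, not a bound site.

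Of 127 deposited libraries 6 held 7 to 41 counts and were dropped, and the other 121 were summed over technical repeats to 108 libraries, with totals from 990801 to 11764600 counts. Young mouse 3 stood apart from the other 5 mice. Its count columns carry a July header date, against April for the other mice with ligand, and mouse and date cannot be told apart. Its 6 neutrophil granule transcripts summed to 24.8 to 2004 (median 158) CPM over 21 libraries, against 5640.3 to 78555 (median 34764) CPM over 87 libraries of the other mice. Its 12 stem and progenitor markers summed to 1655 to 5233 (median 3389.7) CPM, against 233 to 3748 (median 1049.9) CPM. Macrophage markers (10 of 11 in the table) summed to 24.3 to 268 (median 103) CPM, against 101 to 1744 (median 469) CPM, and lymphoid markers (8 of 8) to 2.37 to 138 (median 47.8) CPM, against 5.84 to 650.5 (median 179) CPM. Erythroid markers (10 of 10) summed to 504 to 1602 (median 1028) CPM, against 88.4 to 3438 (median 930.0) CPM. No granule marker was at 0 throughout either set. In bulk samples, fewer cells of a type and less RNA per cell cannot be told apart. At 0 h the cell types carried their markers: the median over 6 mice of Slamf1, a stem cell marker, was 26.7 CPM in LT and 0 in ST, and that of Flt3, a progenitor marker, was 32.5 CPM in LT, 152 in ST and 345.5 in MPP.

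Ftl1 was higher at 4, 8 and 12 h than at 0 h in all 3 cell types of the young mice with ligand. In LT cells with ligand, Ftl1 read 2071, 2737, 3476, 13784, 26721, 26923 and 14232 CPM in old mouse 2 at 0, 0.5, 1, 2, 4, 8 and 12 h. The same 7 times gave 2639, 3176, 3268, 7113, 23113, 28459.5 and 26839 CPM in young mouse 1. Young mouse 2 had 2617, 3011, 3628, 9021, 24734, 26106 and 21939.8 CPM. In these mice the values at 0.5 and 1 h were above 0 h by less than those at 2 h, those at 4 h were many times higher, and those at 12 h were still far above 0 h. Young mouse 3 had 1369, 1836, 2355, 3719, 7195, 9605 and 6235 CPM, the lowest of the 4 courses at every time. Without ligand, at 0, 2, 4 and 8 h, LT cells had 2395, 7163, 18599 and 30266 CPM in old mouse 4 and 2606, 6576, 27971 and 42263 CPM in young mouse 4. Both of these courses were at their highest at 8 h, above every 8 h value with ligand.

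In ST cells with ligand, Ftl1 read 1993, 2535, 2724, 6363, 12211, 17675 and 15082 CPM in old mouse 2 and 2762, 2832, 3243, 6351, 21899, 25249 and 27854 CPM in young mouse 1. In young mouse 2 the course was 2367, 3020.1, 3816, 8343, 21073, 25186 and 22254 CPM, and in young mouse 3 it was 1469, 1846, 2293, 3515, 4808, 4684 and 6454 CPM. Without ligand, ST cells had 1963, 6959, 21159 and 27349 CPM in old mouse 4 and 2288, 8470.1, 27339.6 and 43823 CPM in young mouse 4. As in LT, young mouse 3 was the lowest of the 4 courses with ligand. In MPP cells with ligand the courses were 1402, 1719, 2309, 6389.7, 14194, 14802 and 13041 CPM in old mouse 2 and 2337, 2658, 3093, 6955, 19166, 25011 and 24275 CPM in young mouse 1. Young mouse 2 had 1859, 2144, 2629.9, 6932, 16019, 17887 and 14786 CPM and young mouse 3 had 1226, 1438, 1724, 2929.8, 4109, 3693 and 3787 CPM. Without ligand, MPP cells had 2196, 8322, 22112 and 33342 CPM in old mouse 4 and 2204, 7252, 27462 and 43237 CPM in young mouse 4. Ftl1 was highest at 8 h in 9 of the 12 courses with ligand and in 6 of 6 without. In the other 3 courses the highest value came at 12 h (young mice 1 and 3, ST cells) or at 4 h (young mouse 3, MPP cells).

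**Figure D1:**
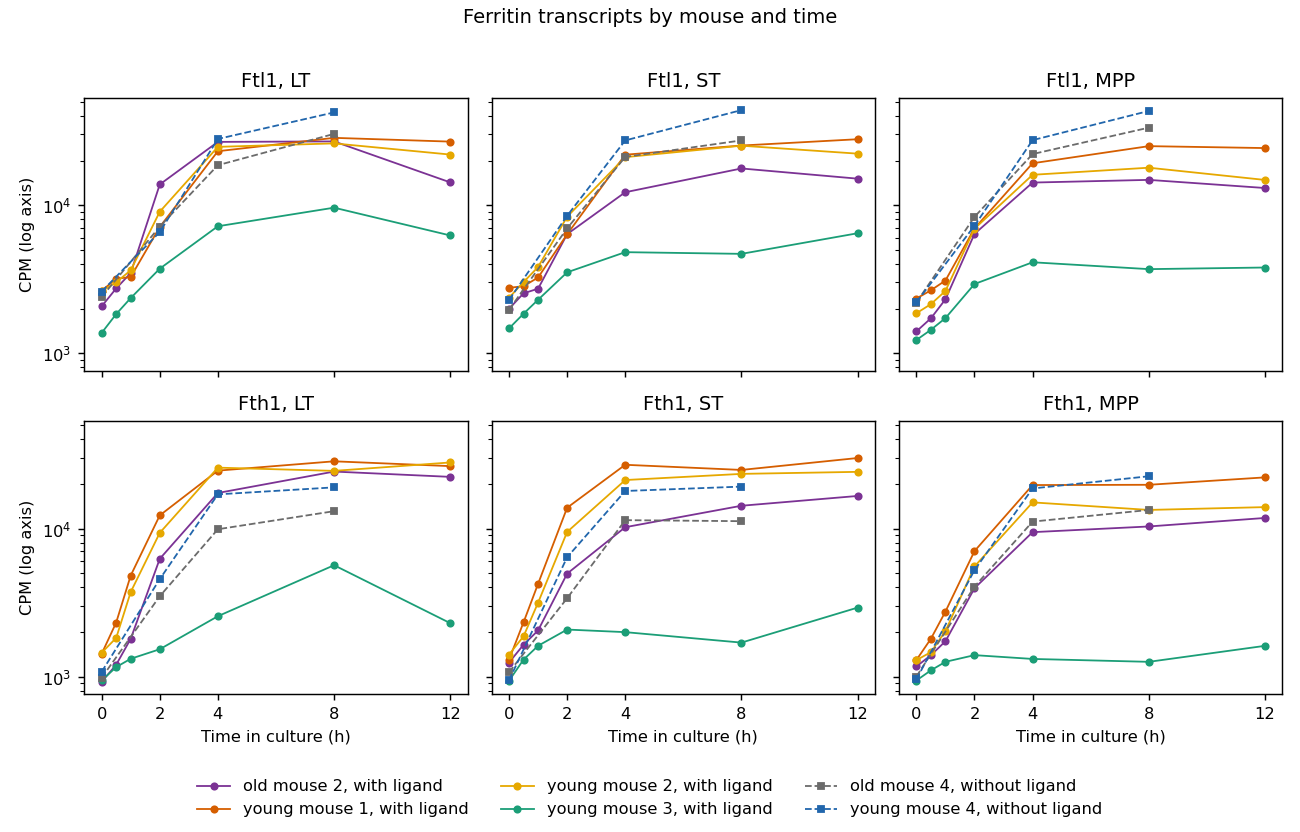
Ftl1 and Fth1 levels (CPM, log axis) against time in culture (h) in LT, ST and MPP cells, 1 line per mouse, mice with ligand listed before mice without. Levels at 4 and 8 h lie above 0 h in every course, and young mouse 3 is the lowest course with ligand for Ftl1, at 3693 CPM of Ftl1 in MPP cells at 8 h.

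The heavy chain, Fth1, was also higher at 4 h than at 0 h in each of the 18 courses. In LT cells with ligand Fth1 read 922, 1202, 1801, 6241, 17381, 24248 and 22329.9 CPM in old mouse 2 at the 7 times. Young mouse 1 had 1425, 2317, 4811, 12266, 24601, 28441 and 26389 CPM and young mouse 2 had 1448, 1824, 3724, 9346, 25772, 24513 and 27939 CPM. Young mouse 3 reached only 5651 CPM at 8 h, against 941 CPM at 0 h. Without ligand, LT cells had 982, 3489, 9888 and 13096 CPM in old mouse 4 and 1077, 4552, 17011 and 18967 CPM in young mouse 4 at 0, 2, 4 and 8 h. In ST cells the 4 h values with ligand were 10208 CPM in old mouse 2 and 26947, 21253 and 1996 CPM in young mice 1, 2 and 3, against 0 h values of 1243 CPM in old mouse 2 and 1300.5, 1409 and 938 CPM in young mice 1, 2 and 3. In MPP cells they were 9449 CPM in old mouse 2 and 19660.0, 15016 and 1315 CPM in young mice 1, 2 and 3, against 1170.0 CPM in old mouse 2 and 1293, 1291 and 940.4 CPM in young mice 1, 2 and 3 at 0 h. In MPP cells of young mouse 3, Fth1 was 1257 CPM at 8 h, close to its 0 h value. Fth1 was highest at 12 h in 8 of 12 courses with ligand, whereas 5 of 6 courses without ligand, which end at 8 h, were highest there.

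The number of Fth1 counts per Ftl1 count depends on transcript length, so only its changes are described. In LT cells it was 1.72 in young mouse 1 and 0.453 in old mouse 2 at 2 h, against 0.540 and 0.445 in those mice at 0 h. In old mouse 2 it was 0.901 at 8 h and 1.57 at 12 h, the highest LT value at 12 h. Young mouse 2 had 1.04 at 2 h and 1.27 at 12 h, against 0.553 at 0 h. In young mouse 3 the ratio was lower at 4 h, with 0.355 against 0.687 at 0 h. Without ligand it was 0.487 in old mouse 4 and 0.692 in young mouse 4 at 2 h, and 0.433 and 0.449 at 8 h, against 0.410 and 0.413 at 0 h. In young mouse 4 the 2 h value was 0.755 in ST and 0.722 in MPP cells, against 0.413 and 0.434 at 0 h. In LT cells with ligand the ratio at 4 h lay above 0 h in old mouse 2 and young mice 1 and 2, and below it in young mouse 3; no test was run on it. Ferritin has many processed pseudogenes, so the share of reads assigned to each chain is uncertain.

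**Figure D2:**
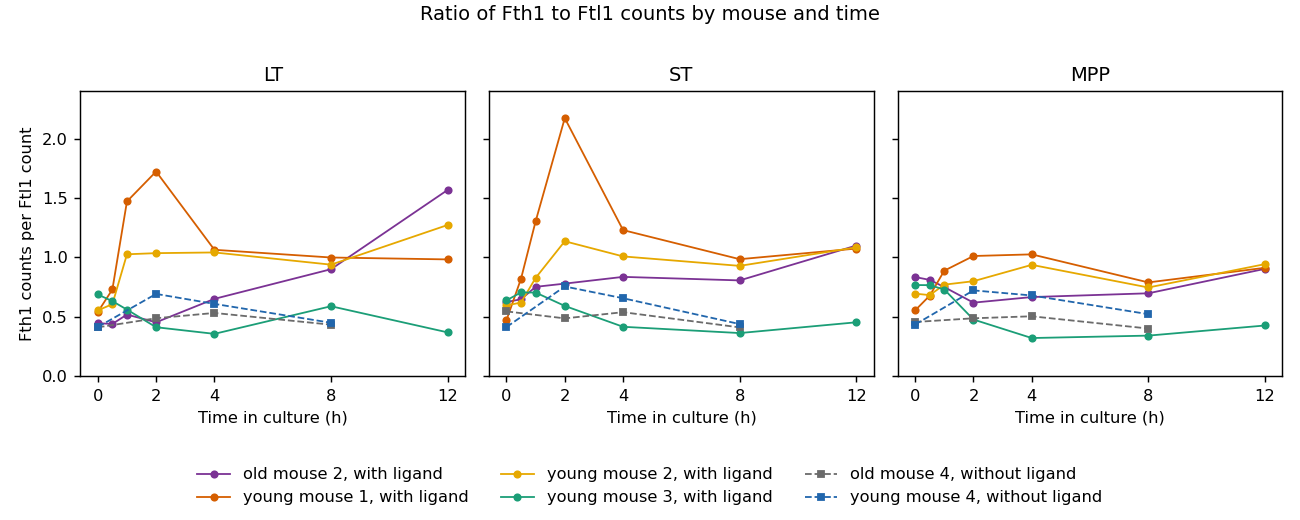
Fth1 counts per Ftl1 count against time (h) in LT, ST and MPP cells, 1 line per mouse. Young mouse 1 is highest at 2 h, with 1.72 in LT and 2.17 in ST cells, and young mouse 3 is lowest with ligand from 4 h on.

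Nfe2l2, the gene of the Nrf2 factor itself, had its highest value at 1 or 2 h in most courses with ligand. In LT cells it read 182, 170.5, 546, 372, 356, 298 and 248 CPM in old mouse 2 at the 7 times with ligand. Young mouse 1 had 127, 143, 413, 185, 359.7, 261 and 140.1 CPM, young mouse 2 had 125, 106, 388, 428, 557, 209.6 and 175 CPM and young mouse 3 had 70.5, 217, 308, 297, 148, 138 and 116 CPM. All 4 were above their 0 h level at 1 h and still at 12 h. In ST cells the 1 h values were 239.5 CPM in old mouse 2 and 448, 279 and 370.0 CPM in young mice 1, 2 and 3, against 84.8 CPM in old mouse 2 and 160.4, 155 and 113 CPM in young mice 1, 2 and 3 at 0 h. In MPP cells they were 243 CPM in old mouse 2 and 376, 349 and 336 CPM in young mice 1, 2 and 3, against 80.5 CPM in old mouse 2 and 139, 84.6 and 93.6 CPM in young mice 1, 2 and 3 at 0 h. The highest value fell at 1 h in 5, at 2 h in 6 and at 4 h in 1 of 12 courses with ligand. Without ligand the first sample after 0 h was at 2 h, with 276 CPM in old mouse 4 and 437 CPM in young mouse 4 in LT cells, against 186 CPM in old mouse 4 and 103 CPM in young mouse 4 at 0 h. The highest value without ligand fell at 2 h in 3, at 4 h in 2 and at 8 h in 1 of 6 courses.

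Slc7a11, Gclm and Gclc supply glutathione: Slc7a11 is the cystine importer, and Gclc and Gclm are the catalytic and modifier subunits of the enzyme that joins glutamate and cysteine. In LT cells at 4 h with ligand, Slc7a11 read 1199 CPM in old mouse 2 and 1404, 883 and 39.3 CPM in young mice 1, 2 and 3, against 24.7 CPM in old mouse 2 and 23.7, 27.8 and 29.0 CPM in young mice 1, 2 and 3 at 0 h. In ST cells it read 511 CPM in old mouse 2 and 1652, 968 and 57.4 CPM in young mice 1, 2 and 3, against 17.4 CPM in old mouse 2 and 46.5, 23.2 and 23.6 CPM in young mice 1, 2 and 3. In MPP cells the values were 567 CPM in old mouse 2 and 1152, 785 and 51.2 CPM in young mice 1, 2 and 3, against 34.4 CPM in old mouse 2 and 36.8, 36.8 and 55.7 CPM in young mice 1, 2 and 3. Slc7a11 was highest at 4 h in 8 of 12 courses with ligand; young mouse 3 was highest at 2 h in all 3 cell types, with 152, 194 and 119 CPM in LT, ST and MPP. Gclm was likewise low at 0 h. In LT cells at 4 h it read 611 CPM in old mouse 2 and 1066, 580.4 and 103 CPM in young mice 1, 2 and 3, against 20.4 CPM in old mouse 2 and 51.7, 47.3 and 6.29 CPM in young mice 1, 2 and 3 at 0 h. In ST cells it read 716 CPM in old mouse 2 and 1041, 599 and 47.2 CPM in young mice 1, 2 and 3, against 101 CPM in old mouse 2 and 33.7, 22.9 and 18.8 CPM in young mice 1, 2 and 3, and in MPP cells 863 CPM in old mouse 2 and 802, 290.0 and 27.1 CPM in young mice 1, 2 and 3, against 48.4 CPM in old mouse 2 and 26.7, 38.0 and 15.9 CPM in young mice 1, 2 and 3. Without ligand Gclm was 2058 CPM in old mouse 4 and 1925 CPM in young mouse 4 at 8 h in LT cells, against 27.9 CPM in old mouse 4 and 80.0 CPM in young mouse 4 at 0 h. Gclm was highest at 4 h in 9 of 12 courses with ligand and at 8 h in 5 of 6 without. Gclc was near its detection limit: 10 of 108 libraries were at 0, and in LT cells with ligand it was 19.2 to 193 CPM at 4 h, against 0 to 16.1 CPM at 0 h.

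Txnrd1, thioredoxin reductase, and Srxn1, sulfiredoxin, which repairs overoxidised peroxiredoxins, belong to the thioredoxin arm. In LT cells at 4 h with ligand Txnrd1 read 889 CPM in old mouse 2 and 912, 1351 and 151 CPM in young mice 1, 2 and 3, against 29.8 CPM in old mouse 2 and 88.4, 43.0 and 68.6 CPM in young mice 1, 2 and 3 at 0 h. Young mouse 1 held 25.9 CPM at 8 h between 912 CPM at 4 h and 512 CPM at 12 h, so this library stood apart from its neighbours in time. In ST cells the range with ligand was 109.9 to 1169 CPM at 4 h, against 20.2 to 95.0 CPM at 0 h, and in MPP cells it was 131 to 801 CPM at 4 h, against 47.4 to 94.9 CPM at 0 h. Txnrd1 was highest at 4 h in 7 and at 1 h in 4 of 12 courses with ligand. Srxn1 was at 0 in 11 of 108 libraries. In LT cells it was 43.0 to 326 CPM at 4 h, against 0 to 19.4 CPM at 0 h with ligand, in ST cells 29.4 to 129 CPM at 4 h, against 0 to 4.63 CPM at 0 h and in MPP cells 6.18 to 102 CPM at 4 h, against 3.01 to 6.06 CPM at 0 h. Without ligand Srxn1 read 276 CPM in old mouse 4 and 490.2 CPM in young mouse 4 at 4 h in LT cells, against 6.35 CPM in old mouse 4 and 0 CPM in young mouse 4 at 0 h.

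Hmox1, heme oxygenase 1, which frees iron from heme, and Nqo1, a quinone reductase, were low at 0 h. In LT cells at 4 h Hmox1 read 8726 CPM in old mouse 2 and 3633, 4153 and 1096 CPM in young mice 1, 2 and 3, against 17.1 CPM in old mouse 2 and 15.4, 119 and 16.7 CPM in young mice 1, 2 and 3 at 0 h. In ST cells it read 599.7 CPM in old mouse 2 and 4389.5, 2958 and 50.8 CPM in young mice 1, 2 and 3, against 12.8 CPM in old mouse 2 and 60.1, 71.7 and 21.7 CPM in young mice 1, 2 and 3. In MPP cells it read 585 CPM in old mouse 2 and 2632, 1585 and 17.6 CPM in young mice 1, 2 and 3, against 8.19 CPM in old mouse 2 and 74.2, 62.9 and 32.1 CPM in young mice 1, 2 and 3, and young mouse 3 was below its 0 h value. Without ligand at 4 h, Hmox1 was 5874 CPM in old mouse 4 and 6439 CPM in young mouse 4 in LT, 7696 CPM in old mouse 4 and 6659 CPM in young mouse 4 in ST and 8409 CPM in old mouse 4 and 7320.0 CPM in young mouse 4 in MPP. In ST and MPP cells both of these values lay above all 4 values with ligand at 4 h. Hmox1 was highest at 4 h in 7 of 12 courses with ligand and in 6 of 6 without. Nqo1 came later, with its highest value at 8 h in 9 of 12 courses with ligand and 5 of 6 without. In LT cells Nqo1 was 58.2 to 874 CPM at 8 h, against 0.975 to 9.29 CPM at 0 h with ligand, in ST cells 0 to 372 CPM at 8 h, against 0.106 to 21.5 CPM at 0 h and in MPP cells 9.53 to 273 CPM at 8 h, against 0.836 to 6.65 CPM at 0 h.

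**Figure D3:**
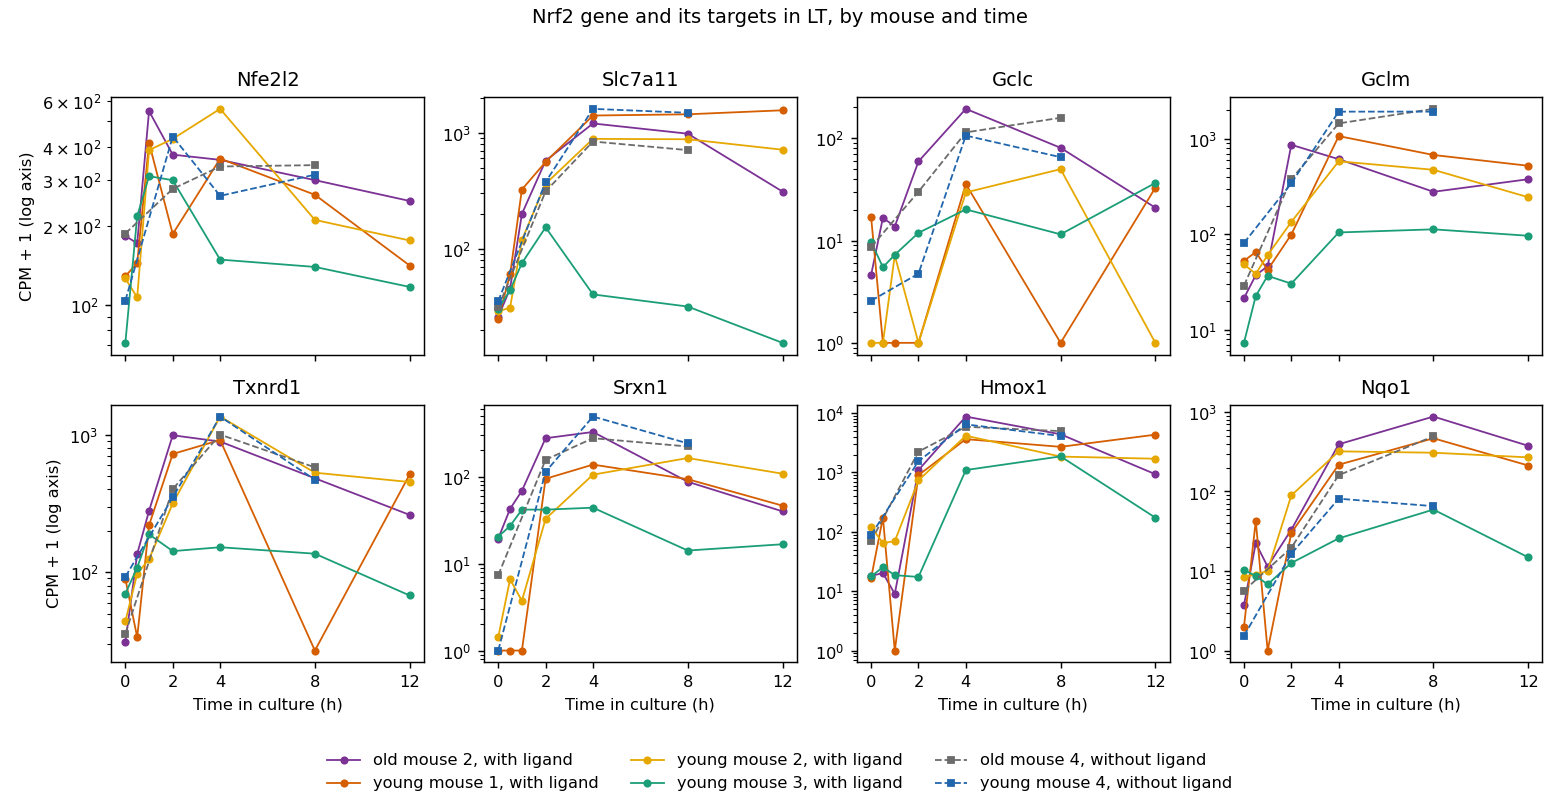
Levels of Hmox1, Nqo1, Gclc, Gclm, Slc7a11, Txnrd1, Srxn1 and Nfe2l2 (CPM + 1, log axis) against time (h) in LT cells, 1 line per mouse. Nfe2l2 is above 0 h by 1 h in all 4 mice with ligand, and Nqo1 reaches 874 CPM in old mouse 2 at 8 h.

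All 10 genes were above their own 0 h level at 4 h in each of the 4 mice with ligand in LT cells (10 of 10) and in ST cells (10 of 10); in MPP cells 7 of 10 were, the exceptions being Gclc, Hmox1 and Slc7a11. The share of all genes above 0 h in all 4 mice is not given here, so these counts have no background rate beside them. The median log2(CPM + 1) change of the 10 genes in LT cells at 4 h was 4.84 in old mouse 2 and 4.22, 4.91 and 1.22 in young mice 1, 2 and 3. The median over all genes in the same libraries was -0.41, -0.60, -0.54 and -0.31. In MPP cells at 4 h the 10 genes had a median of 0.42 in young mouse 3, against 3.35 in old mouse 2 and 3.97 and 3.49 in young mice 1 and 2. Young mouse 3 thus had the smallest median of the 4 in both cell types, and it is the mouse with few granule transcripts; the part of those cells in the result was not tested.

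**Figure D4:**
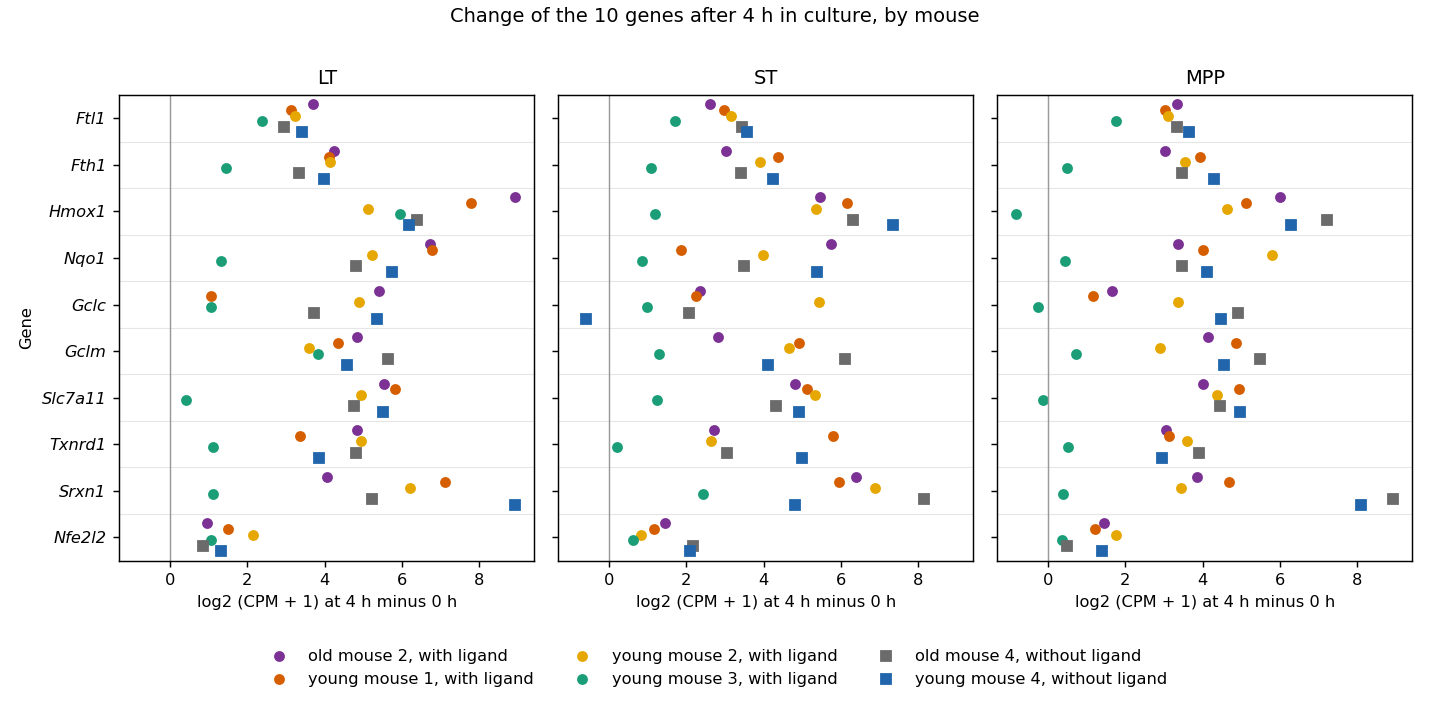
Change from 0 h to 4 h, as log2(CPM + 1), of the 10 genes in LT, ST and MPP cells, 1 point per mouse, mice with ligand listed before mice without. Points lie above 0 for all 10 genes in LT and ST cells with ligand, and Hmox1 in MPP cells of young mouse 3 is at 17.6 CPM at 4 h, below its 0 h value.

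Tests were run on young mice 1, 2 and 3 with ligand, with edgeR's quasi-likelihood F test. Benjamini-Hochberg adjustment was over 13678 genes, called at an adjusted p of at most 0.05. The stated reason for the choice of genes did not use these libraries. Earlier results of these data were known at that choice, so the tests are not shown to be independent of it. Over the whole course, any change at the 6 times after 0 h was called for 5 of 10 genes in LT cells (background 1.17% of all genes), for 4 of 10 in ST cells (0.848%) and for 1 of 10 in MPP cells (0.695%). Ftl1 was called in all 3, with adjusted p = 2.24e-04 in LT, 4.36e-04 in ST and 3.02e-04 in MPP. Fth1 had adjusted p = 0.0311 in LT, 0.0432 in ST and 0.0757 in MPP. Gclm had 0.0464, 0.0376 and 0.0811, and Nfe2l2 had 0.0481, 0.0306 and 0.0734. Hmox1 was called in LT alone, with 0.0372, 0.101 and 0.283 in LT, ST and MPP. Slc7a11, Txnrd1, Nqo1, Srxn1 and Gclc were not called in any cell type, with adjusted p from 0.0575 to 1.

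At single times Ftl1 rose in all 3 cell types at 4, 8 and 12 h. At 8 h its log2 change was 3.31 ± 0.69 in LT (SE; adjusted p = 0.0100), 3.15 ± 0.68 in ST (0.0141) and 3.29 ± 0.69 in MPP (0.00757), in the fit with n = 3 mice a time. At 4 h the adjusted p was 0.0146, 0.0230 and 0.0181 (edgeR; 0.271%, 0.271% and 0.344% of all genes called), and at 12 h it was 0.0172, 0.0109 and 0.0112 (0.241%, 0.446% and 0.314%). Of the 10 genes 1, Ftl1, was called at 8 h in each cell type, against 0.285%, 0.263% and 0.314% of all genes in LT, ST and MPP. At 2 h, 1305 genes in LT, 930 in ST and 437 in MPP had an unadjusted p under 0.05. None of the 10 was called in LT (0.307%) or ST (0.307%). Nfe2l2 rose in MPP (0.263%), by 2.04 ± 0.48 on the log2 scale (edgeR adjusted p = 0.0351). In MPP the number under 0.05 was 437, 608, 568 and 599 at 2, 4, 8 and 12 h, each fewer than that threshold gives if no gene differs. The median log2 change of the 10 genes at 8 h was 3.68 in LT, 3.93 in ST and 3.23 in MPP, against -0.37, -0.26 and -0.21 over all genes. At 8 h the median log2 change of the neutrophil granule markers was 0.67, 0.35 and 1.12 in LT, ST and MPP, that of the macrophage markers -1.89, -4.20 and -3.48, that of the erythroid markers -3.79, -1.75 and -0.90, that of the lymphoid markers -1.77, -2.85 and -2.15 and that of the stem and progenitor markers -0.28, -0.15 and -1.07, with no marker called. Detected genes in LT cells numbered 6241, 7547 and 11501 at 8 h in young mice 1, 2 and 3, against 10101, 12319 and 12155 at 0 h. The part of these shifts in the results was not tested.

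The calls at 8 h and over the course rest on young mice 1 and 2, and the Nfe2l2 call at 2 h rests on all 3 mice. Without young mouse 1, or without young mouse 2, none of the 10 genes was called there in any cell type. At 8 h Ftl1 had a log2 change of 3.19, 3.14 and 3.04 in LT, ST and MPP without young mouse 1 (edgeR adjusted p = 0.323, 0.352 and 0.427) and of 3.32, 2.92 and 3.23 without young mouse 2 (adjusted p = 1, 1 and 1), so the change stayed near its size while the call was lost. Without young mouse 3 it was 3.45, 3.42 and 3.61 (adjusted p = 1.77e-11, 2.09e-11 and 9.53e-12). The Ftl1 calls at 4 and 12 h, refitted after seeing the data, were also lost without young mouse 1 (adjusted p from 0.162 to 0.547 over both times and the 3 cell types) and without young mouse 2 (0.503 to 1), and stood without young mouse 3 (1.72e-11 to 7.86e-11). The 8 h calls of Ftl1 were also lost in limma voom (log2 change 2.41, 3.54 and 2.53, adjusted p = 0.927, 0.856 and 0.803) and in edgeR on the libraries of 0 and 8 h alone (adjusted p = 0.796, 0.531 and 0.0973). With libraries of at least 8000 detected genes, the 8 h call was lost in ST and kept in MPP (edgeR adjusted p = 0.0629 and 0.00802). At 8 h that filter dropped young mouse 1 in ST (7992 detected genes) and young mice 1 and 2 in LT (6241 and 7547). Young mouse 3 was thus the only mouse left in LT at 8 h, so this filter cannot test the LT call. The Nfe2l2 call in MPP at 2 h was lost with DESeq2 size factors in edgeR (adjusted p = 0.0526) and without a filter on low counts (0.124), and without young mouse 1, 2 or 3 (0.178, 1 and 0.0657). Without young mouse 3, 8, 6 and 5 of 10 were called over the course in LT, ST and MPP, and 6, 6 and 4 at 8 h. With the mouse as a replicate block, the counts were 7, 6 and 5 over the course, 2, 4 and 2 at 2 h and 5, 3 and 2 at 8 h. With libraries of at least 8000 detected genes alone, chosen after seeing the data, 1 and 2 were called over the course in ST and MPP. In LT this filter left young mouse 3 alone at 8 and 12 h, so no count is given there.

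The courses were not shown to differ between cell types: edgeR's test of the difference called none of the 10 genes for LT minus MPP (0% of all genes), ST minus MPP (0%) or LT minus ST (0%), with adjusted p of 1 for all 10 genes. The smallest unadjusted p among the 10 in edgeR was 0.633 (Gclc), 0.577 (Nfe2l2) and 0.565 (Nfe2l2) for these differences in the same order. DESeq2 called none of the 10 for these differences. The main fit had no mouse term, so it did not use the pairing of cell types by animal. With the mouse as a replicate block none of the 10 was called for these differences. At 0 h, over 18 libraries of 6 mice, none of the 10 was called between LT and MPP (0.00869%), ST and MPP (0%) or LT and ST (0%). Of 11501 genes 393, 202 and 354 had an unadjusted p under 0.05, fewer than that threshold gives if no gene differs. The 0 h fit held age but no mouse term, so the pairing of cell types by animal was not used. With the mouse as a replicate block none of the 10 was called at 0 h. DESeq2 called none of the 10 either. Age was compared at 0 h. In LT cells Ftl1 read 2071 and 2395 CPM in old mice 2 and 4, against 2639, 2617, 1369 and 2606 CPM in young mice 1, 2, 3 and 4, and Fth1 read 922 and 982 CPM in old mice 2 and 4, against 1425, 1448, 941 and 1077 CPM in young mice 1, 2, 3 and 4. Old values lay within the young range for Ftl1 and below most of it for Fth1. The log2 difference, old minus young, was -0.08 ± 0.37 for Ftl1 and -0.38 ± 0.29 for Fth1 in LT cells. None of the 10 genes was called between ages in LT (0%), ST (0%) or MPP (0%). There 440, 551 and 56 of 12983 genes had an unadjusted p under 0.05, again fewer than that threshold gives if no gene differs. DESeq2 called none of the 10 between ages.

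For the courses with and without ligand, only values are given, since culture without ligand chose the genes and mouse and ligand coincide. Without ligand, fitted log2 changes at 8 h against 0 h were 4.01 in LT, 4.24 in ST and 4.33 in MPP for Ftl1. For Fth1 they were 4.11 in LT, 4.09 in ST and 4.41 in MPP, and for Gclm 5.33 in LT, 5.19 in ST and 5.16 in MPP. For Hmox1 at 4 h they were 6.49 in LT, 6.94 in ST and 6.94 in MPP. The fit took 1 old and 1 young mouse together, with no age or mouse term. The difference with minus without ligand at 8 h was -0.52 ± 0.77 in LT, -1.05 ± 0.77 in ST and -0.99 ± 0.77 in MPP for Ftl1, so each estimate was negative, with an SE of similar size. For Fth1 it was 0.11 ± 1.13 in LT, -0.27 ± 1.13 in ST and -0.98 ± 1.14 in MPP, and for Hmox1 at 4 h it was 0.43 ± 1.80 in LT, -1.23 ± 1.81 in ST and -1.93 ± 1.82 in MPP. The values after ± are SEs of a fit that also had no age or mouse term, and they are not a test. The comparisons share the 0 h libraries of each mouse.

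Other genes of these pathways were taken from lists fixed by name. Of 23 tested of 25 further Nrf2 targets, 2, 2 and 2 were called higher and 0 lower at 8 h in LT, ST and MPP (background as above, 0.285%, 0.263% and 0.314%), with a median log2 change of 1.48, 1.14 and 1.30, against -0.37, -0.26 and -0.21 over all genes. These 2 were Sqstm1, an autophagy receptor that also binds Keap1, and Gstm1, a glutathione transferase. In LT cells Sqstm1 rose by 4.52 ± 0.56 at 2 h (log2, SE; edgeR adjusted p = 5.79e-07), with 3823, 6684 and 10739 CPM in young mice 1, 2 and 3, against 355, 305 and 338 CPM at 0 h. Sqstm1 was thus highest in young mouse 3 at this time. In LT cells at 2 h old mouse 4 and young mouse 4, without ligand, had 1780.2 and 1376 CPM of Sqstm1, against 249 and 171 CPM at 0 h. These 2 mice had 4268 and 2716 CPM at 4 h and 3673 and 3401 CPM at 8 h. Gstm1 rose at 8 h by 1.91 ± 0.38 in LT (adjusted p = 0.00631), 1.65 ± 0.38 in ST (0.0337) and 1.98 ± 0.38 in MPP (0.00282). In LT cells at 8 h, Gstm1 read 551, 1434 and 628 CPM in young mice 1, 2 and 3 with ligand. Without ligand it read 1034 CPM in old mouse 4 and 792 CPM in young mouse 4 at 8 h, against 373 and 207 CPM at 0 h. Leaving out young mouse 1, 2 or 3 gave Sqstm1 a log2 change of 4.95, 4.52 and 4.09 at 2 h in LT cells (adjusted p = 3.96e-04, 0.0409 and 2.05e-08). Without young mouse 2 the adjusted p of Sqstm1 was 0.0579 in ST and 0.209 in MPP at 2 h, and 0.311, 0.365 and 0.284 in LT, ST and MPP at 8 h, so there the LT call at 2 h was the only 1 left. In limma voom it was 0.375, 0.146 and 0.0315 at 2 h and 0.278, 0.306 and 0.0378 at 8 h in the same order, and in edgeR on the compared times alone 0.111, 0.0353 and 0.00545 at 2 h and 0.116, 0.131 and 0.0296 at 8 h. Gstm1 at 8 h had an adjusted p of 0.00620, 0.0475 and 0.00527 in LT, ST and MPP without young mouse 1, 1, 1 and 1 without young mouse 2 and 0.0276, 0.153 and 0.0367 without young mouse 3, and of 0.853, 0.460 and 0.0517 on the compared times alone. Both genes were therefore lost at 8 h in all 3 cell types without young mouse 2. Of 15 iron handling genes, 11 tested regulators of Nrf2 (of 12 listed) and 12 glutathione and cystine genes, none was called at 2 or 8 h in any cell type, at background rates already given.

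The genes whose levels followed Ftl1 most closely, by Pearson r of log2(CPM + 1) over 63 libraries of young mice 1, 2 and 3 among 8841 genes, were Fth1 (0.954), Cstb (0.951), Aldoa (0.936), Gclm (0.928) and Esd (0.924). These libraries share mice, time points and depth, so r is a description. Over the 42 libraries without young mouse 3 it was 0.971, 0.952, 0.946, 0.933 and 0.949 in the same order. Within young mouse 3 alone it was 0.886, 0.915, 0.949, 0.767 and 0.707. Cstb is a cathepsin inhibitor, Aldoa a glycolytic aldolase and Esd an esterase. Hmox1 ranked 7 with r = 0.892, whereas Nfe2l2, whose highest values came mostly at 1 or 2 h, ranked 1028 with r = 0.201. Slc7a11 ranked 16, Nqo1 19, Srxn1 147, Txnrd1 191 and Gclc 539. Within young mouse 3 alone, r was 0.730 for Hmox1 and -0.113 for Nfe2l2. For Slc7a11, Nqo1, Srxn1, Txnrd1 and Gclc it was -0.00305, 0.240, -0.0608, -0.194 and 0.167 there.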

How the data were processed

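RNA was read by SMART-seq2, which captures polyadenylated RNA and uses no molecular identifiers, per the labels' protocols. The deposited values are expected counts per gene symbol, made with RSEM on mm9 per the submitters' processing notes (RSEM version not stated); 89.5% of the deposited expected counts are whole numbers. Here, libraries under 1000 counts were dropped, technical repeats of 1 mouse, cell type, course and time were summed, and the sums were rounded. A 0 h library labelled with ligand was read as the baseline of its mouse. CPM used the summed total as scale, and changes per mouse used log2(CPM + 1). Totals ran from 990801 to 11764600 counts. A count of 0 allows up to 3 counts, and such limits cover counting error only.

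The main test was edgeR 4.0.16 (TMM, filterByExpr, quasi-likelihood F test) in R 4.3.3, with Benjamini-Hochberg adjustment over all genes tested and a threshold of 0.05; 63 libraries of young mice 1, 2 and 3 entered 1 fit. DESeq2 1.42.0, limma 3.58.1, other filters and scalings, the deepest repeat and each mouse left out were tried as alternatives. Samples with the same age and mouse number come from 1 animal per the labels, so the mouse was a replicate block in 1 alternative: residuals correlated on average at 0.207, 0.0776 and 0.432 within young mice 1, 2 and 3, against -0.133, -0.0546 and -0.223 with other mice. The count columns hold no mouse number. They were matched to mice by age, header date or prefix, and the times sampled. Each mouse with ligand has its own header date, so mouse and date coincide. What the dates mark is not given. The 10 genes and all lists were chosen with earlier results of these data known. All 10 genes are named; a gene of another list is named where it passed at 2 or 8 h with ligand, up to 4 per list, and the 5 genes most like Ftl1 by Pearson r are named. Whether separate cultures were used per time is not given in the sources used here.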

Additional observations from a re-analysis of the deposited data

How the results depend on the processing

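Counts are genes of the 10 called in LT, ST and MPP cells with ligand; the main counts were 0, 0 and 1 at 2 h, 1, 1 and 1 at 8 h and 5, 4 and 1 over the course. DESeq2 called 3, 3 and 1 at 2 h, 6, 5 and 3 at 8 h and 8, 7 and 7 over the course, and limma voom with quality weights called 0, 2 and 3 at 2 h, 0, 0 and 2 at 8 h and 1, 2 and 4 over the course. With DESeq2 size factors in edgeR the counts were 0, 0 and 0 at 2 h, 1, 1 and 1 at 8 h and 5, 4 and 1 over the course. Without a filter on low counts they were 0, 0 and 0 at 2 h, 3, 2 and 2 at 8 h and 7, 6 and 5 over the course, and with a filter of 5 CPM in 3 libraries 0, 0 and 1 at 2 h, 1, 1 and 1 at 8 h and 6, 4 and 2 over the course. The deepest repeat in place of the sum gave 0, 0 and 1 at 2 h, 1, 1 and 1 at 8 h and 2, 4 and 2 over the course, and young mouse 4 added at 0 h gave 0, 1 and 1 at 2 h, 3, 2 and 1 at 8 h and 7, 6 and 3 over the course; that mouse is the baseline of culture without ligand, by which the genes were chosen, so these counts support nothing. The compared libraries alone gave 0, 0 and 4 at 2 h and 0, 0 and 0 at 8 h. Libraries of at least 8000 detected genes, chosen after seeing the data, gave 0, 0 and 1 at 2 h. In ST and MPP they gave 0 and 1 at 8 h and 1 and 2 over the course. In LT they left young mouse 3 alone at 8 and 12 h, so no LT count is given at 8 h or over the course. With the mouse as a replicate block, which uses the pairing of samples by animal, the counts were 2, 4 and 2 at 2 h, 5, 3 and 2 at 8 h and 7, 6 and 5 over the course. Leaving out 1 young mouse gave 0 to 4, 0 to 4 and 0 to 3 at 2 h; 0 to 6, 0 to 6 and 0 to 4 at 8 h; 0 to 8, 0 to 6 and 0 to 5 over the course. The cause of these moves was not tested. In every alternative run, none of the 10 genes was called between cell types or ages. No change called at a single time in the main test reversed its sign. Other estimates were not checked for this. Age was compared between mice, so no paired analysis was possible there because each mouse has 1 age.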
